A study of Hordeum vulgare with 28 samples.

Results

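The barley terpene synthase genes *MLOC_56812*, *MLOC_76989* and *MLOC_13618* were followed through all 7 groups of an RNA-seq study of leaves exposed to spider mites or to wounding. They are 3 of the 25592 genes counted and 3 of the 16948 that passed the filter on low counts. The genes were chosen by the study from these same libraries, *MLOC_56812* and *MLOC_76989* for their induction by both mites at 2 h and 24 h and *MLOC_13618* for its induction at 24 h. Levels in mite-infested leaves relative to the controls, and levels of *MLOC_13618* at 24 h relative to 2 h of feeding, are therefore given as a description with no test. All 3 genes were close to absent from control leaves, so each passed the filter only through the groups in which it was high.

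Terpene synthases convert linear prenyl diphosphates into the carbon skeletons of monoterpenes, sesquiterpenes and diterpenes. Many of these products are volatile, and in grasses as in other plants they are among the compounds released from leaves under attack, where they can attract predators of the herbivore. The prenyl diphosphates come from a plastid pathway and from the cytosolic mevalonate pathway, and jasmonate, a hormone made after wounding and herbivory, is a known inducer of many terpene synthase genes. Which terpenes the 3 barley enzymes make is not given in the sources used here.

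Plants were of the barley cultivar Morex, 30 days old, with treatments applied to leaf 5. Adult females of *Oligonychus pratensis*, a mite specialized on grasses, fed for 24 h (O24, 200 mites per leaf section) or 2 h (O2, 400 mites per section), and those of *Tetranychus urticae*, a generalist, likewise (T24 and T2). Since the numbers of mites differed between the time points, time and mite density cannot be told apart. Other leaves were pressed with 60 grit sandpaper 24 h (W24) or 2 h (W2) before collection, and a single control group (C) had the wax barriers used to keep mites in place and no other treatment. Each group had 4 replicates, each from 1 enclosed leaf section. Both mites were kept on barley for some generations before use. Before that, the *O. pratensis* strain came from maize in the field and the *T. urticae* strain was kept on bean, so the mites differed in origin as well as in species.

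Total counts per library ranged from 11.7 M to 38.3 M (M, mega), and levels are given in CPM, the reads of a gene scaled to the library total. The light-harvesting genes used as mesophyll markers, *MLOC_17002*, *MLOC_11961* and *MLOC_20487*, were abundant in every library, as the leaf label implies. Their summed level was 1310 to 2240 CPM in O24, 2510 to 4240 CPM in T24 and 2450 to 3350 CPM in W2, against 6660 to 9470 CPM in C. In O2, T2 and W24 the sum lay between 5950 and 8370 CPM. The guard cell marker *MLOC_10111* averaged 85.1 ± 9.68 CPM in W2 and 38.9 ± 4.61 CPM in W24, against 11.1 ± 4.75 CPM in C (SD, n = 4 each). The epidermal marker *MLOC_11693* stayed under 1 CPM in every library. In samples of whole leaf sections, fewer cells of a type and less RNA per cell cannot be told apart, and the part of these shifts in the results on the terpene synthase genes was not tested.

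*MLOC_56812* was found in all 16 mite-infested leaves and in none of the controls. It had 243, 146, 34 and 56 reads in O24 leaves (13.1, 7.28, 1.79 and 2.29 CPM) and 26, 107, 12 and 29 reads in O2 leaves (1.38, 7.04, 0.681 and 1.67 CPM). In T24 leaves it had 47, 93, 127 and 132 reads (2.32, 4.5, 9.3 and 6.54 CPM), and in T2 leaves 10, 11, 21 and 31 reads (0.769, 0.94, 1.21 and 2.48 CPM). Replicates of a treatment thus differed widely, above all in O24 and O2. Wounded leaves had 0, 0, 2 and 1 reads in W24 and 1, 7, 14 and 8 reads in W2, and each of the 4 control leaves had 0 reads. From the highest mean to the lowest the order was O24 (6.11 ± 5.27 CPM), T24 (5.66 ± 2.97 CPM), O2 (2.69 ± 2.93 CPM), T2 (1.35 ± 0.777 CPM), W2 (0.251 ± 0.143 CPM), W24 (0.0311 ± 0.0437 CPM) and C (0 CPM; SD, n = 4 each). Neighbours among the mite groups did not differ beyond their spread, whereas T2 lay above W2 with no overlap.

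Against a floor of 3 reads over the control group, the mean level of *MLOC_56812* was at least 226-fold higher in O24, 99.5-fold in O2, 209-fold in T24, 49.9-fold in T2 and 9.28-fold in W2 than in C. Leaving out O2 replicate 2, which held 107 of the 174 reads of its group, lowered the O2 bound to 45.9-fold, and leaving out O24 replicate 1 lowered the O24 bound to 140-fold. At 2 h the gene was 10.7-fold higher in O2 than in W2 (4.95-fold without O2 replicate 2) and 5.38-fold higher in T2 than in W2. At 24 h the level from pooled reads was 202-fold higher in O24 than in W24 (95% counting interval 68.8 to 984) and 185-fold higher in T24 than in W24 (62.8 to 900), where W24 replicate 3 held 2 of the 3 reads of its group. As folds of means these were 196 and 182, and 575 and 533 without that leaf, while the O24 value was 122 without O24 replicate 1. Such intervals reflect only the counting of reads, which are not independent molecules.

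*MLOC_76989* was likewise found in every mite-infested leaf and in no control leaf. It had 73, 46, 8 and 4 reads in O24 leaves (3.93, 2.29, 0.421 and 0.164 CPM) and 79, 190, 10 and 47 reads in O2 leaves (4.18, 12.5, 0.567 and 2.71 CPM). In T24 leaves it had 44, 33, 58 and 41 reads (2.17, 1.6, 4.25 and 2.03 CPM), and in T2 leaves 17, 13, 36 and 32 reads (1.31, 1.11, 2.07 and 2.56 CPM). The *T. urticae* leaves were therefore fairly even, while the *O. pratensis* leaves of each time point spanned more than a 10-fold range. No read was counted in W24, and W2 leaves had 0, 7, 7 and 7 reads. The order of means was O2 (4.99 ± 5.22 CPM), T24 (2.51 ± 1.18 CPM), T2 (1.76 ± 0.675 CPM), O24 (1.7 ± 1.76 CPM), W2 (0.186 ± 0.133 CPM) and then W24 and C, both at 0 (SD, n = 4 each). No neighbours among the 4 mite groups differed beyond their spread, and O24 and W2 overlapped.

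With the same floor, *MLOC_76989* was at least 63-fold higher in O24, 184-fold in O2, 92.8-fold in T24, 65.1-fold in T2 and 6.87-fold in W2 than in C. The O24 bound fell to 35.5-fold without O24 replicate 1 and the O2 bound to 91.9-fold without O2 replicate 2. Every O2 and T2 leaf exceeded every W2 leaf, by 26.9-fold for the O2 mean (13.4-fold without O2 replicate 2) and 9.48-fold for the T2 mean. At 24 h the gene was at least 59-fold higher in O24 (33.2-fold without O24 replicate 1) and 86.9-fold higher in T24 than in W24.

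*MLOC_13618* was high at 24 h of feeding only. It had 2648, 3539, 3621 and 4544 reads in O24 leaves (143, 177, 191 and 186 CPM) and 120, 313, 134 and 279 reads in T24 leaves (5.91, 15.1, 9.81 and 13.8 CPM), whereas O2 leaves had 8, 3, 1 and 6 reads and T2 leaves 0, 0, 1 and 3 reads. Every O24 leaf thus stood above every T24 leaf, and both groups stood far above all 2-h leaves. Wounded leaves had 3, 2, 5 and 6 reads in W24 and 1, 1, 1 and 0 reads in W2, and control leaves had 0, 12, 0 and 1 reads. The order of means was O24 (174 ± 21.7 CPM), T24 (11.2 ± 4.18 CPM), O2 (0.256 ± 0.162 CPM), W24 (0.155 ± 0.0693 CPM), C (0.111 ± 0.204 CPM), T2 (0.0744 ± 0.114 CPM) and W2 (0.0277 ± 0.02 CPM; SD, n = 4 each). From O2 downwards all neighbours overlapped, so O2 and T2 could not be set apart from W24 or C at this depth. The pooled ratio of O2 to W2 was 9.81 (95% counting interval 2.86 to 52), from 18 and 3 reads.

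The mean level of *MLOC_13618* was 1560-fold higher in O24 and 100-fold higher in T24 than in C. These folds rest on control replicate 2, which held 12 of the 13 control reads. Without it, the pooled ratio was 14400 for O24 (95% counting interval 2580 to 568000) and 929 for T24 (166 to 36800). The same control leaf also had the highest level of the jasmonate genes described below, with 3.65 CPM of *MLOC_21933* against 0.625 to 1.18 CPM in the other controls. Relative to 24 h of wounding, *MLOC_13618* was 1120-fold higher in O24 and 72.2-fold higher in T24. Relative to 2 h of feeding, it was 680-fold higher in O24 than in O2 and 150-fold higher in T24 than in T2 (584-fold without T2 replicate 4, which held 3 of the 4 reads of T2).

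**Figure D1:**
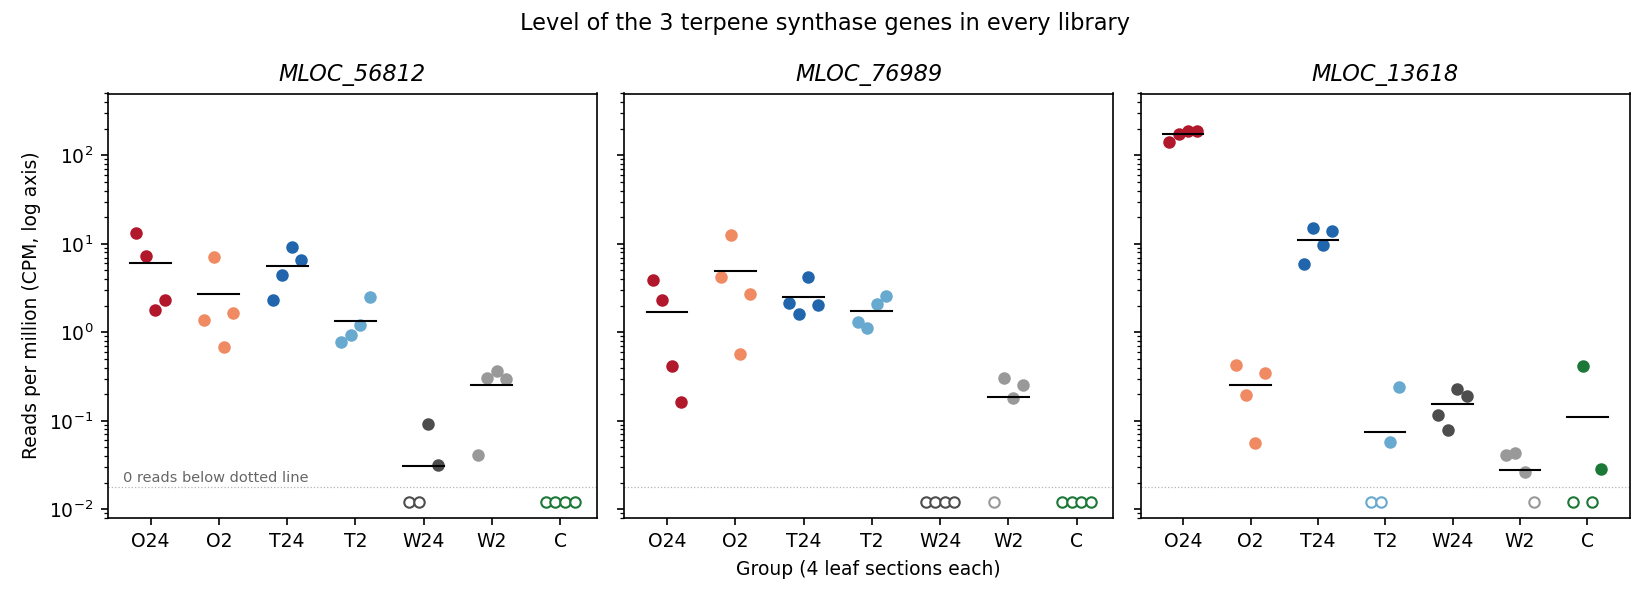
Level of each terpene synthase gene in every library, in CPM on a log axis, with 1 point per leaf section, a line at each group mean and open symbols below the dotted line for libraries with 0 reads. *MLOC_56812* and *MLOC_76989* are present at both time points of feeding by either mite, whereas *MLOC_13618* lies between 143 and 191 CPM in O24 and between 5.91 and 15.1 CPM in T24 and near 0 elsewhere.

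Every O24 leaf and every T24 leaf exceeded every control leaf for 3 of the 3 genes. The same held for 41.1% of all tested genes with O24 and 37.7% with T24. At 2 h it held for 2 of the 3 genes in O2 and in T2, *MLOC_13618* being the exception, against 6.31% of tested genes in O2 and 6.63% in T2. Since the genes were chosen on these contrasts, the counts describe the choice. After wounding, 1 of the 3 genes, *MLOC_56812*, stood above every control leaf in W2 (30.2% of tested genes), and 0 of the 3 did so in W24 (18.4% of tested genes). *MLOC_76989* missed in W2 only because W2 replicate 1, which also had the lowest *MLOC_56812* level of its group, had 0 reads.

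Next, the 2 mites were compared directly, a contrast on which the genes had not been chosen. Counts of all genes were fitted with edgeR's quasi-likelihood test, with p-values adjusted by the Benjamini-Hochberg method over all 16948 tested genes, with calls made where the adjusted p was below 0.01 and the change exceeded 1 on the log2 scale in either direction. Of the 3 genes, 1 was called at 24 h, whereas 9.33% of all tested genes were. *MLOC_13618* was higher in O24 than in T24 by 3.96 ± 0.27 on the log2 scale (SE, edgeR adjusted p = 1.05e-10), a 15.6-fold difference that held in 4 of 4 leaves. Leaving out any one leaf gave folds of means between 13.5 and 17.7. The gene ranked 32 by log2 fold change of the 1059 called higher in O24, and 9 by adjusted p among all tested genes.

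The other two genes showed no such difference. For *MLOC_56812* the log2 fold change of O24 over T24 was 0.13 ± 0.59 (95% interval −1.03 to 1.29, edgeR adjusted p = 0.887), and it was −0.54 without O24 replicate 1. For *MLOC_76989* it was −0.55 ± 0.77 (−2.07 to 0.97, edgeR adjusted p = 0.618). These intervals leave room for differences of more than 2-fold in either direction for *MLOC_56812*, and of about 4-fold lower for *MLOC_76989*.

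At 2 h, 0 of the 3 genes were called between O2 and T2, as were 0.0% of all tested genes. Of the 16948 tested genes, 517 had an unadjusted p under 0.05 in the edgeR test, where the lowest adjusted p was 0.246, and DESeq2 called 1 gene. The log2 fold changes of O2 over T2 were 0.93 ± 0.71 for *MLOC_56812* (95% interval −0.47 to 2.33), 1.43 ± 0.77 for *MLOC_76989* (−0.09 to 2.94) and 1.73 ± 1.13 for *MLOC_13618* (−0.48 to 3.94), each with an edgeR adjusted p of 1.0. For *MLOC_56812* the sign rested on O2 replicate 2, since the value without that leaf was −0.14. The interaction of mite and time was called for 0 of the 3 genes (4.71% of all tested genes), with edgeR adjusted p-values of 0.598 for *MLOC_56812*, 0.226 for *MLOC_76989* and 0.353 for *MLOC_13618*. That *MLOC_13618* differed between the mites at 24 h and not at 2 h was thus not shown to be a difference between the time points, with 0 to 8 reads per leaf at 2 h.

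Whether the level of *MLOC_56812* and *MLOC_76989* moved between the time points was tested within each mite. In *O. pratensis* leaves 0 of these 2 genes were called between O24 and O2, while 31.4% of all tested genes were. *MLOC_56812* had a log2 fold change of 1.06 ± 0.62 (edgeR adjusted p = 0.132) and *MLOC_76989* one of −1.7 ± 0.76 (edgeR adjusted p = 0.0525). Without O2 replicate 2, *MLOC_56812* passed the thresholds with a log2 fold change of 2.09 (edgeR adjusted p = 0.00572). In *T. urticae* leaves 0 of the 2 genes were called between T24 and T2, against 13.3% of all tested genes, with 1.86 ± 0.69 for *MLOC_56812* (edgeR adjusted p = 0.0281) and 0.28 ± 0.8 for *MLOC_76989* (edgeR adjusted p = 0.793). The value of *MLOC_56812* passed when only the groups compared were fitted (adjusted p = 0.00613).

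The balance between the 2 genes within a leaf differed between the time points. For each leaf the reads of *MLOC_56812* were divided by those of *MLOC_76989*, a ratio that needs no scaling between libraries. The ratio was 3.33, 3.17, 4.25 and 14 in O24 leaves, against 0.329, 0.563, 1.2 and 0.617 in O2 leaves. It was 1.07, 2.82, 2.19 and 3.22 in T24 leaves, against 0.588, 0.846, 0.583 and 0.969 in T2 leaves. Thus *MLOC_56812* gave more reads than *MLOC_76989* in each of the 8 leaves at 24 h and fewer in 7 of the 8 leaves at 2 h, and the time points did not overlap within either mite.

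After 0.5 was added to each count, the mean log2 ratio over both mites was 1.68 ± 0.99 at 24 h and −0.58 ± 0.57 at 2 h (SD, n = 8 each). The difference of 2.26, or 4.78-fold, had p = 0.000408 (exact two-sided permutation test over 4900 assignments within mites, the smallest p they allow) and p = 0.00122 after adjustment over the 3 tests of this ratio. By mite, the log2 ratio was 2.26 ± 0.94 in O24 and −0.71 ± 0.75 in O2, and 1.09 ± 0.7 in T24 and −0.44 ± 0.36 in T2 (SD, n = 4 each). The mites themselves did not differ past the threshold of 0.05. The log2 ratio was 1.17 higher in O24 than in T24 (exact permutation p = 0.0571, adjusted p = 0.0857) and 0.27 lower in O2 than in T2 (−0.27, exact permutation p = 0.571, adjusted p = 0.571), with 0.0286 the smallest p that 4 against 4 leaves allow. The ratio in O24 replicate 4 rests on 4 reads of *MLOC_76989*.

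**Figure D2:**
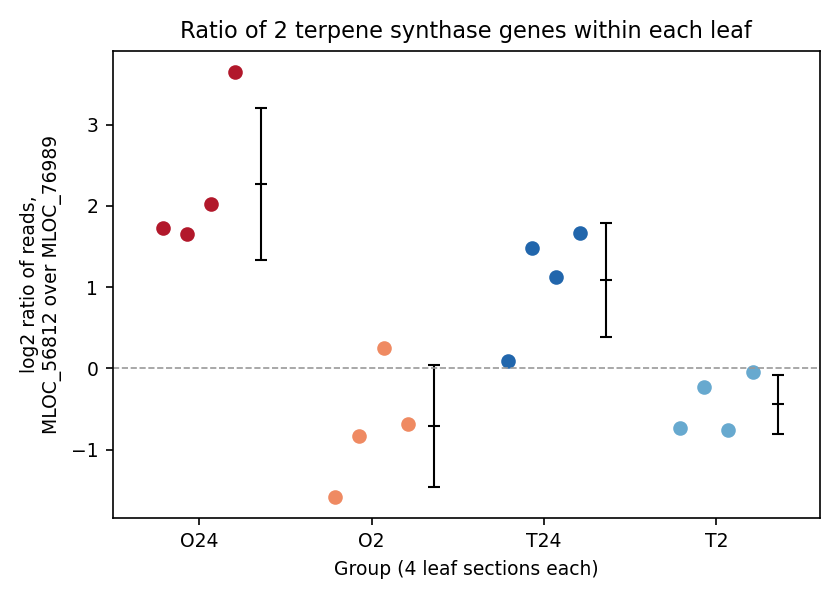
The log2 ratio of *MLOC_56812* reads to *MLOC_76989* reads in each mite-infested leaf, by group, with 0.5 added to each count and the group mean and SD drawn to the right of the points. All 8 leaves at 24 h lie above 0, where the genes have equal reads, and 7 of 8 leaves at 2 h lie below it.

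Wounding gave low counts of all 3 genes. *MLOC_56812* and *MLOC_76989* had 30 and 21 reads in the 4 W2 leaves and 3 and 0 in the 4 W24 leaves, whereas *MLOC_13618* had 3 reads in W2 and 16 in W24. The pooled ratio of W24 to W2 was 0.109 for *MLOC_56812* (95% counting interval 0.0212 to 0.349; as a fold of means 0.124, and 0.0424 without W24 replicate 3) and 5.8 for *MLOC_13618* (1.66 to 31), and *MLOC_76989* was at least 6.43-fold lower in W24. In the edgeR fit 0 of the 3 genes were called between W24 and W2, against 26.9% of all tested genes, with adjusted p-values of 0.0842 for *MLOC_56812*, 0.0845 for *MLOC_76989* and 0.0976 for *MLOC_13618*. The genes passed the filter through the mite groups and had at most 30 reads in a wounded group. With so few reads, the absence of edgeR calls does not show a lack of change. DESeq2 called *MLOC_56812* and *MLOC_76989* lower in W24 (DESeq2 adjusted p = 0.00765 and adjusted p = 0.00113).

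Covariation was examined over the 16 mite-infested leaves, on log2 CPM with the mean of each group subtracted, so that only differences between leaves of the same treatment counted. *MLOC_56812* and *MLOC_76989* varied together, with Pearson's r = 0.88 (permutation p = 0.00198, adjusted over 3 pairs p = 0.00594) and Spearman's rho = 0.83 (permutation p = 0.00424, adjusted p = 0.0127). In 14 of the 16 leaves the genes lay on the same side of their group means. O24 replicate 1 was 1.51 above its group mean for *MLOC_56812* and 1.89 above for *MLOC_76989*, and O2 replicate 2 was 1.84 and 1.96 above. Without these 2 leaves, the farthest from the median, r was 0.79. Leaves at the low end also matched, with O2 replicate 3 at −1.3 for *MLOC_56812* and −2.23 for *MLOC_76989*.

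Within single time points or mites the relation kept its sign with fewer leaves behind it. Over 8 leaves each, r was 0.86 at 24 h (exact permutation p = 0.0556, adjusted over 3 pairs p = 0.167) and 0.9 at 2 h (exact permutation p = 0.0243, adjusted p = 0.0729). By mite it was 0.94 for *O. pratensis* (exact permutation p = 0.0156, adjusted p = 0.0469) and 0.71 for *T. urticae* (exact permutation p = 0.0885, adjusted p = 0.133). After adjustment only the *O. pratensis* value passed the threshold of 0.05. Without subtraction of group means r was 0.5 (permutation p = 0.0482, adjusted over 3 pairs p = 0.0723).

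No relation of *MLOC_13618* with the other two passed the threshold. Its r was 0.32 with *MLOC_56812* (permutation p = 0.251, adjusted p = 0.377) and 0.24 with *MLOC_76989* (permutation p = 0.382, adjusted p = 0.382), with Spearman's rho of 0.27 (permutation p = 0.35, adjusted p = 0.525) and 0.15 (permutation p = 0.618, adjusted p = 0.618). Without the 2 farthest leaves r was 0.56 with *MLOC_56812* and 0.07 with *MLOC_76989*. At 2 h these values rest on 0 to 8 reads of *MLOC_13618* per leaf. In the 24-h leaves alone, where its counts were high, r was 0.07 with *MLOC_56812* (exact permutation p = 0.858) and −0.29 with *MLOC_76989* (exact permutation p = 0.267), and in the 2-h leaves alone it was 0.49 (exact permutation p = 0.264) and 0.57 (exact permutation p = 0.153). In the *T. urticae* leaves alone r with *MLOC_56812* was 0.76 (exact permutation p = 0.0451, adjusted over 3 pairs p = 0.133), no lower than the 0.71 between *MLOC_56812* and *MLOC_76989* in the same 8 leaves, and in the *O. pratensis* leaves alone it was 0.03 (exact permutation p = 0.974). In O24 the leaf with the highest CPM of *MLOC_56812* and *MLOC_76989*, replicate 1, had the least *MLOC_13618* (143 CPM), and across the group *MLOC_13618* varied far less (coefficient of variation 0.125) than *MLOC_56812* (0.862) or *MLOC_76989* (1.04).

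**Figure D3:**
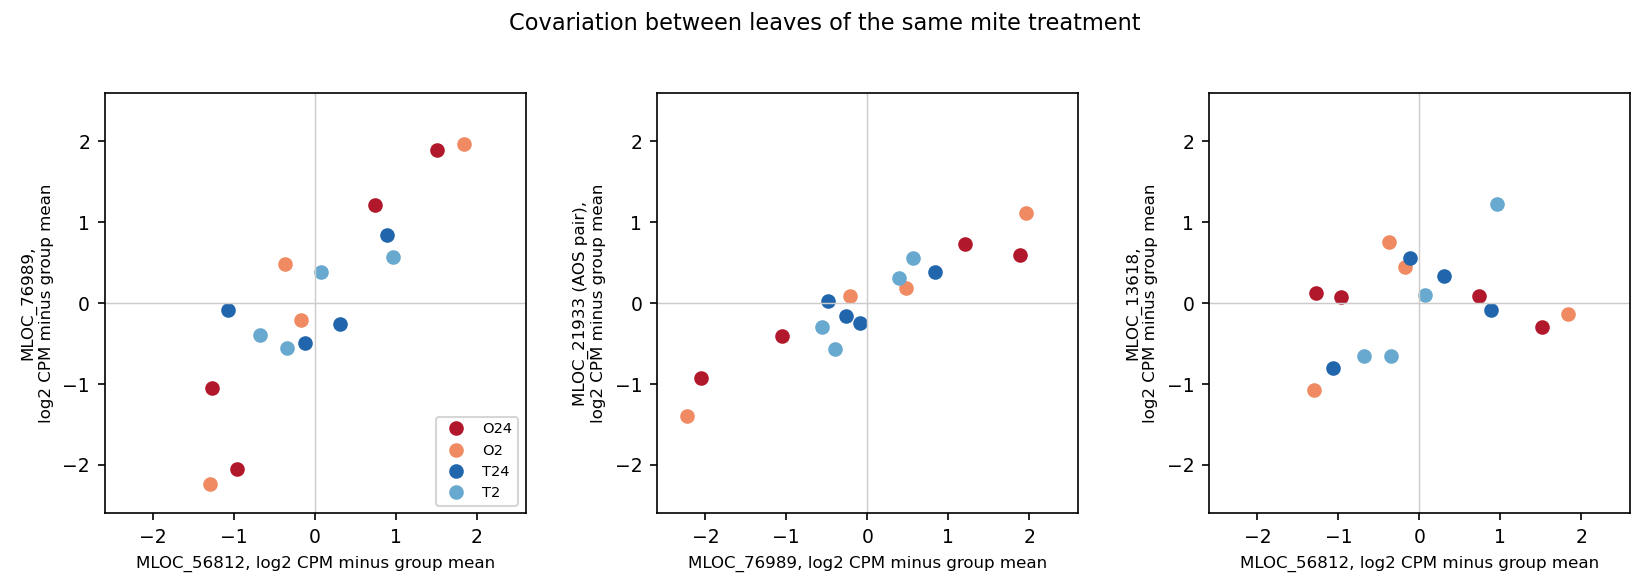
Deviation of each mite-infested leaf from its group mean, in log2 CPM, for *MLOC_56812* and *MLOC_76989* (left), *MLOC_76989* and the *AOS*-paired gene *MLOC_21933* (centre) and *MLOC_56812* and *MLOC_13618* (right), with 1 point per leaf and colour for the group. The points rise together in the left (r = 0.88) and centre (r = 0.95) panels and are more scattered on the right (r = 0.32).

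The general strength of the response differed between leaves of some groups. Over the 344 other genes called higher in both O2 and T2 than in C, the mean log2 change was 2.83, 3.34, 1.74 and 2.7 in O2 replicates 1 to 4, so the leaf with the most *MLOC_56812* and *MLOC_76989*, replicate 2, was the highest and the one with the least, replicate 3, the lowest. In T2 it was 2.38, 2.64, 2.8 and 3.14, and T2 replicate 4 was again the highest for *MLOC_56812* and *MLOC_76989*. Over the 2207 other genes called higher in both O24 and T24, the change was 3.39, 3.54, 3.26 and 3.37 in O24 and 2.25, 2.5, 2.42 and 2.82 in T24. In O24 the leaves were thus nearly alike on this measure while *MLOC_56812* differed between them by 1.79 to 13.1 CPM. The match seen at 2 h did not hold at 24 h. O24 replicate 1 had the most *MLOC_56812* and *MLOC_76989*, while replicate 2 was the highest on this measure. T24 replicate 3 had the most of both genes (9.3 and 4.25 CPM), with a change of 2.42 against 2.82 in replicate 4. The part of the general response in the covariation was not tested.

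Among the 14981 other genes with a mean of at least 1 CPM in these leaves, 10 had r over 0.9 with *MLOC_56812*, 13 with *MLOC_76989* and 1 with *MLOC_13618*, while the median r was 0.02, 0.01 and 0.01. The correlations are a description over 16 leaves that share libraries and treatment groups. *MLOC_76989* ranked 22 by r with *MLOC_56812*, and *MLOC_56812* ranked 27 by r with *MLOC_76989*, so other genes matched each of them more closely than they matched each other. The gene most like *MLOC_56812* was *MLOC_18031* (r = 0.96, 0.92 without the 2 farthest leaves), which averaged 84.8 CPM in O24, 35.1 in O2, 191 in T24, 21.2 in T2, 11.9 in W24, 13.6 in W2 and 7.76 in C. The gene most like *MLOC_76989* was *MLOC_17298* (r = 0.97, 0.95 without the 2 farthest leaves), with 23.9 CPM in O24, 14.7 in O2, 69.9 in T24, 4.81 in T2, 0.749 in W24, 2.55 in W2 and 0.163 in C. Neither is paired with an Arabidopsis locus in the table used here.

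Of the genes that this shortened table pairs with an Arabidopsis locus (1717 of those compared), the same 3 were most like *MLOC_56812* and *MLOC_76989*. *MLOC_21933*, paired with *AOS*, which encodes the allene oxide synthase of jasmonate synthesis, had r = 0.88 with *MLOC_56812* and 0.95 with *MLOC_76989*, where it ranked 5 of all genes compared. *MLOC_2643*, paired with a locus of the potato inhibitor I family of protease inhibitors, had r = 0.93 and 0.84, and *MLOC_33219*, paired with the ribonuclease gene *RNS1*, had r = 0.87 and 0.91. Likeness within groups did not always mean a like level between groups. Before group means were subtracted, r with *MLOC_56812* was 0.36 for *MLOC_33219*, compared with 0.84 for *MLOC_21933* and 0.79 for *MLOC_2643*. With *MLOC_76989* it was 0.07 for *MLOC_2643* and 0.46 for *MLOC_33219*, compared with 0.63 for *MLOC_21933*. *MLOC_33219* averaged 647 CPM in W2, against 5.92 CPM in C, and did not pass the test in O24 against C (log2 fold change 0.22, edgeR adjusted p = 0.539). *MLOC_2643* averaged 543 CPM in O24 and 1480 CPM in T24, against 2.93 CPM in C.

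For *MLOC_13618* the 3 most alike genes of the table had lower r. *MLOC_1081* is paired with *OM66*, a gene for an outer mitochondrial membrane protein, and had r = 0.78. *MLOC_23899*, whose Arabidopsis locus encodes a LysM domain protein, had r = 0.77, and *MLOC_15536*, paired with the receptor kinase gene *ANX1*, had r = 0.73. Without the 2 farthest leaves r was 0.58 for *MLOC_1081*, 0.74 for *MLOC_23899* and 0.6 for *MLOC_15536*. These values and the ranking rest in part on the 2-h leaves, which had 0 to 8 reads of *MLOC_13618* each. Like *MLOC_13618*, *MLOC_1081* was far higher at 24 h, averaging 17.5 CPM in O24 leaves and 15.2 CPM in T24 leaves, compared with 0.884 CPM in O2, 1.3 CPM in T2 and 0.234 CPM in C, yet it lacked the 15.6-fold difference between the mites.

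The genes around the terpene synthases were examined through 10 genes that the study's table pairs with Arabidopsis loci of jasmonate or terpenoid metabolism. The list holds 2 jasmonate genes, *MLOC_21933* and *MLOC_12120*, and was made with earlier results of these data known. Both rose in every treatment, and the rest of the jasmonate pathway was not examined. *MLOC_21933* (*AOS*) had 269, 281, 134 and 95.9 CPM in O24 and 140, 279, 46.9 and 138 CPM in O2, so the order of the *O. pratensis* leaves was near that of *MLOC_76989*. It had 288, 345, 446 and 324 CPM in T24 and 85.5, 98.7, 140 and 180 CPM in T2. After wounding it had 17.2, 17, 13.1 and 9.82 CPM in W24 and 97.5, 275, 269 and 176 CPM in W2, against 1.18, 3.65, 0.746 and 0.625 CPM in C, and no treated leaf overlapped with a control. Its log2 fold change against C was between 3.1 ± 0.57 in W24 and 7.62 ± 0.62 in T24 (SE, edgeR adjusted p = 0.000293 and adjusted p = 3.45e-10). *MLOC_12120*, paired with *JAZ1*, a repressor of jasmonate signalling that jasmonate itself induces, rose by between 1.52 ± 0.23 in W24 and 4.18 ± 0.25 in W2 (edgeR adjusted p = 2.48e-05 and adjusted p = 1.95e-13).

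At 2 h, levels after wounding relative to feeding differed between the jasmonate genes and *MLOC_56812* and *MLOC_76989*. *MLOC_21933* averaged 151 ± 96 CPM in O2 and 126 ± 42.9 CPM in T2, against 204 ± 84.5 CPM in W2 (SD, n = 4 each), and the ranges overlapped, whereas *MLOC_56812* and *MLOC_76989* stood without overlap above W2 in O2 and in T2. *MLOC_12120* averaged 159 ± 62.4 CPM in O2 and 194 ± 47.5 CPM in T2, against 376 ± 94.1 CPM in W2. *MLOC_13618* had too few reads at 2 h for such a comparison. Since the terpene synthase genes were chosen for their induction by mites, these differences are a description.

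No terpenoid gene of the list rose in any treatment, and at 24 h of feeding several fell. The 8 genes are *MLOC_21379* (*DXR*) and *MLOC_13895* (*MDS*) of the plastid pathway, *MLOC_10729* (*FPS1*), whose product makes the precursor of sesquiterpenes and sterols, *MLOC_12925* (*SPS1*), which makes long prenyl chains of quinones, *MLOC_19896* (*TPS14*), a linalool synthase in Arabidopsis, *MLOC_14023* (*KS*) and *MLOC_17178* (*KO*) of gibberellin synthesis, and *MLOC_11760* (*CAS1*) of sterol synthesis. In O24, 5 of the 8 fell: *MLOC_17178* by 1.82 ± 0.17, *MLOC_10729* by 1.56 ± 0.16, *MLOC_19896* by 1.55 ± 0.11, *MLOC_21379* by 1.07 ± 0.14 and *MLOC_12925* by 1.07 ± 0.12 on the log2 scale (SE, edgeR adjusted p between 3.86e-12 and 1.06e-07). With library size alone 3 of the 8 were called, as *MLOC_21379* (−0.85) and *MLOC_12925* (−0.84) then missed the fold minimum. *MLOC_21379* also missed it without O24 replicate 4 (−0.98), and *MLOC_12925* without control replicate 4 or with a filter of at least 5 CPM in 4 samples (−1.0 each). The median over the 8 genes was −1.07, against 0.01 over all tested genes. *MLOC_13895* and *MLOC_14023* had adjusted p-values under 0.01 with log2 fold changes of −0.97 and −0.79, short of the fold minimum, and *MLOC_11760* had −0.08 ± 0.08 (adjusted p = 0.372).

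In T24, 1 of the 8 was called lower, *MLOC_10729* by 1.12 ± 0.15 (edgeR adjusted p = 8.43e-07), and the median was −0.67, against 0.02 over all tested genes. In T24 as in O24, 7 of the 8 were lower at an edgeR adjusted p under 0.01, those not called being short of the fold minimum. With library size alone the T24 call of *MLOC_10729* was lost (−0.9) and 0 of the 8 were called in T24. With upper-quartile factors 6 of the 8 were called lower in O24, 2 in T24 and 2 in W2. *MLOC_10729* had 246, 213, 283 and 227 CPM in O24 and 446, 326, 290 and 253 CPM in T24, against 674, 636, 544 and 597 CPM in C, so that neither mite group overlapped with the controls. In W2, 1 of the 8 was called lower, *MLOC_19896* by 1.06 ± 0.11 (edgeR adjusted p = 3.84e-09), with a median of −0.44, and 5 of the 8 were lower at an edgeR adjusted p under 0.01. In W24, O2 and T2, 0 of the 8 were called, with medians of −0.19, 0.0 and −0.04. Between the mites, 0 of the 8 were called at 24 h, with a median of −0.44 for O24 over T24, against −0.02 over all tested genes. All 8 estimates were below 0, and 3 had an edgeR adjusted p under 0.01 but were short of the fold minimum. The groups in which these genes fell are those in which the 3 light-harvesting genes were also called lower, with median log2 fold changes of −2.45 in O24, −1.48 in T24 and −1.45 in W2, and the part of that shift in the fall of the terpenoid genes was not tested.

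Taking the 10 genes as a whole, 2 were called higher and 5 lower in O24, beside 20.0% higher and 15.6% lower of all tested genes. In T24, 2 were higher and 1 lower, beside 14.1% and 5.79%, and in W2, 2 were higher and 1 lower, beside 19.3% and 12.6%. In W24, 2 were higher and 0 lower, beside 5.72% and 0.277%. At 2 h of feeding 2 were higher and 0 lower with either mite, beside 2.63% and 0.0177% of all tested genes in O2 and 2.47% and 0.0236% in T2. The split over all genes depended on the scaling. With library size alone 68.2% of calls were higher in O24 and 85.1% in T24, compared with 56.3% and 70.9% under the scaling used here (TMM), and with upper-quartile factors 47.8% were higher in W2, compared with 60.5%. Library size alone moved the median of all genes to 0.23 in O24, 0.24 in T24 and 0.11 in W24, and *MLOC_11760* then had log2 fold changes of 0.13, 0.14 and 0.02, opposite in sign to those under TMM. Upper-quartile factors moved that median to −0.11 in O24 and −0.22 in W2. A change of scaling moves all genes of a comparison by nearly the same amount. It therefore cannot test where the terpenoid genes stood relative to the median of all genes.

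**Figure D4:**
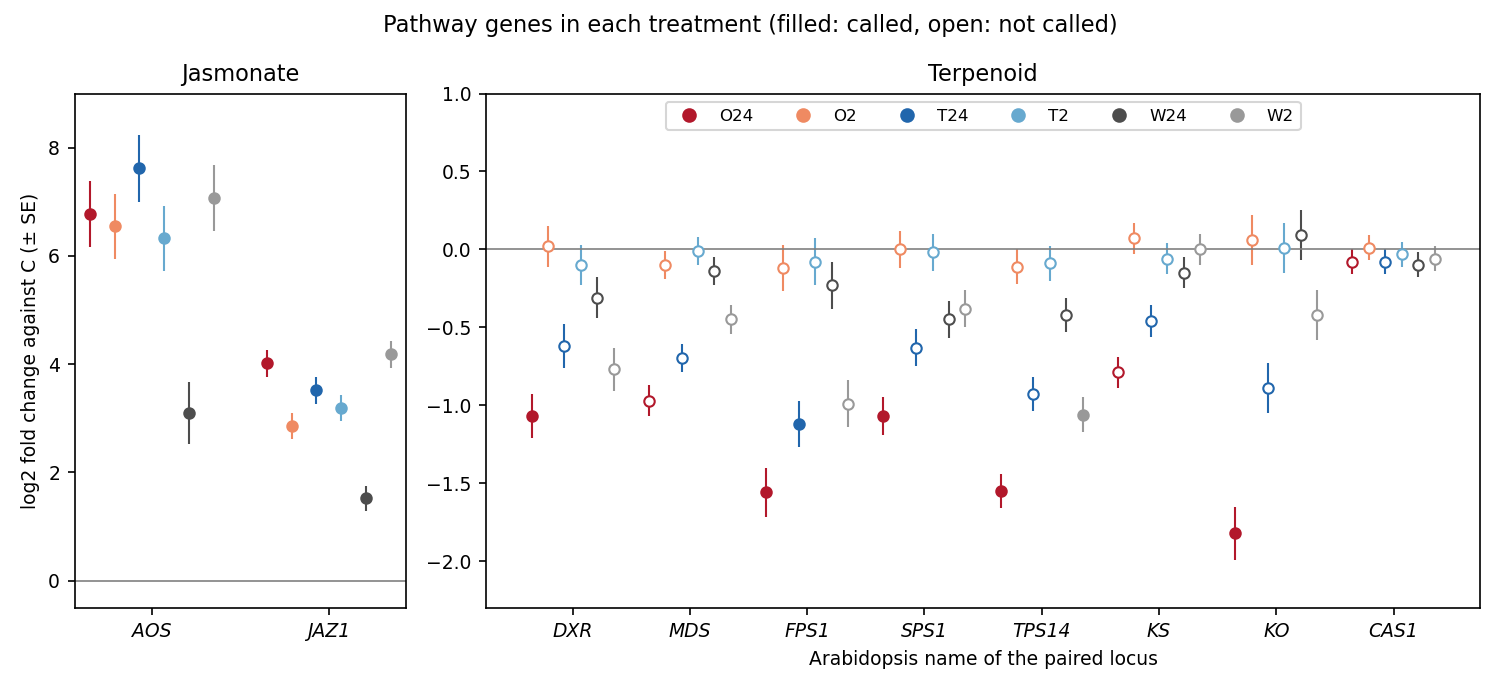
Log2 fold change against C, with its SE, of the *AOS* and *JAZ1* pairs (left) and of 8 terpenoid genes (right) in each treatment, named by the paired Arabidopsis locus, filled where the gene was called and open where it was not. The jasmonate genes are above 0 in all 6 treatments, and 5 of the 8 terpenoid genes are called below 0 in O24, with *MLOC_17178* (*KO*) lowest at −1.82.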

How the data were processed

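Poly(A) RNA of 28 barley leaf samples was sequenced as stranded paired ends. The authors used STAR (2.5.1b in the submitters' processing notes) in multi-pass mode on barley build ASM3268v1 from Ensembl, and HTSeq 0.6.0 in reverse-strand mode to count reads with a unique alignment. Raw gene counts were deposited, so reads shared by near-identical genes are missing, which may lower counts in a gene family such as the terpene synthases; this was not checked. The 3 genes and all lists were chosen with earlier results of these data known.

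Counts were fitted in R 4.3.3 with edgeR 4.0.16 (filterByExpr with minimum count 10, TMM, robust quasi-likelihood, 1 mean per group, all 28 samples). The SE is the log2 fold change divided by the root of F, and the 95% interval is normal. CPM is scaled by the library total alone. Where a group had no reads, folds used a floor of 3 reads over the group. Where it had 1 to 3, pooled ratios have exact binomial intervals. Log2 CPM for covariation used TMM and a prior count of 2, with 100000 shuffles within groups, or all arrangements where fewer. Python 3.11.15 with scipy 1.17.1 was used. The scripts were tested on simulated data.

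Named genes were the 3 genes, 10 pathway genes and 5 cell type markers, the gene most like *MLOC_56812* and the one most like *MLOC_76989*, and for each of the 3 the 3 most alike in the study's barley to Arabidopsis table, which was shortened, so no set test was run. The RefSeq genes of MorexV3 include 0 of the 3 identifiers, so no positions or sequences are given, nor levels per gene length. All 42 pairs of replicates differed by more than sampling noise (chi-square per gene 8.59 to 96.6). Alternatives were DESeq2 1.42.0, other scalings, filters and thresholds, a replicate block and each replicate left out.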

Additional observations from a re-analysis of the deposited data

Results flagged for a closer look

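Of 16 groups of 4 leaves with more than 3 reads of a gene, 2 had a leaf that stood apart from the other 3 by a gap, as a share of the whole range, above Dixon's 95% critical value, and of the 4 mite groups checked in the same way for the log2 ratio none did. For normally distributed values, chance alone places about 1 group in 20 past this limit. The gene levels checked were CPM without a log transform, some from few reads, and the rate for such values was not checked. *MLOC_56812* reached 7.04 CPM (107 reads) in O2 replicate 2, a gap of 0.844 of the range. *MLOC_13618* reached 0.417 CPM (12 reads) in control replicate 2, a gap of 0.932 of the range. The part of sample handling in either value was not tested.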

How the results depend on the processing

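Most results were unmoved by the alternatives run. The call of *MLOC_13618* between O24 and T24 (1 of 3 genes) stayed under all alternatives, the leaves left out in turn included. The number called between O24 and O2 ranged from 0 to 1 with single leaves left out (1 without O2 replicate 2), was 1 in T24 against T2 when only the groups compared were fitted or with an adjusted p under 0.05, and was 2 in W24 against W2 with DESeq2. With no fold change minimum, pathway genes called were 9 in T24, 7 in W2 and 4 in W24, and with the filter of at least 5 CPM in 4 samples only 2 of the 3 genes were tested. Log2 fold changes that turned sign, none of them called, were those of *MLOC_56812* in O24 against T24 (−0.54 to 0.47 over the leaves left out, with −0.54 without O24 replicate 1 and −0.13 without T24 replicate 1), O2 against T2 (−0.14 to 1.36, lowest without O2 replicate 2) and the interaction (−1.46 to 0.27, highest without O2 replicate 2), and of *MLOC_76989* in T24 against T2 (−0.11 to 0.49, lowest without T24 replicate 3). The time difference of the log2 ratio ranged from 2.03 to 2.42 with single leaves left out, the O24 against T24 difference from 0.71 to 1.37 (past the threshold only without O24 replicate 2) and the O2 against T2 difference from −0.59 to 0.02 (above 0 only without O2 replicate 1). The correlation of *MLOC_56812* with *MLOC_76989* ranged from 0.84 to 0.92 with single leaves left out and missed the threshold without group means subtracted (0.5), at 2 h alone (0.9), at 24 h alone (0.86) and with *T. urticae* alone (0.71), the last 3 over 8 leaves. That of *MLOC_76989* with *MLOC_13618* turned to −0.31 without group means subtracted and −0.29 at 24 h alone, and ranged from −0.07 to 0.36 with single leaves left out, O2 replicate 3 being the leaf without which it turned. Members above every control leaf numbered 1 to 2 in W2 and 0 to 1 in W24 with single leaves left out (without W2 replicate 1, and without control replicate 2). Beyond what is stated here, the cause of these changes was not tested.

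The paper describes a randomized block design, with replicates spread evenly over the sequencing lanes. The labels do not say whether replicate numbers follow the blocks or lanes. Of 84 pairs of same-numbered samples in different groups, 22 had deviations from the group means that correlated over 0.1 (range −0.153 to 0.272, median 0.0356). Such low values leave a weak pairing possible, so the main fits ignored replicate numbers and a block was run as an alternative. With the replicate number as a block, 1 of 3 genes was called in O24 against T24 and 0 in the other contrasts of the 3 genes. Pathway genes called were then 7 in O24, 3 in T24, 2 in W24, 2 in O2, 2 in T2 and 4 in W2. With same-numbered leaves paired, the time difference of the ratio was 2.26. An exact sign-flip test gave p = 0.00781, the smallest it allows, and adjusted p = 0.0234. The correlation of *MLOC_56812* with *MLOC_76989* was 0.94 with the block. Depth limits the results on *MLOC_13618* at 2 h and on all 3 genes in wounded leaves, where a leaf had at most 14 reads.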
